A study of Mus musculus with 11 samples.

Results

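The 10 genes described here, Ttr, Folr1, Kcnj13, Clic6, Kl, Enpp2, Kcne2, Prlr, Otx2 and Sostdc1, are known for high expression in the epithelium of the choroid plexus, the tissue in the brain ventricles that makes cerebrospinal fluid. They were taken from 53700 gene identifiers counted in the cerebral cortex of 11 mice, and each symbol matched 1 Ensembl identifier. The genes were chosen by their known place of expression together with their levels in these same 11 animals, so their levels by animal and their likeness to Ttr are given as a description, with no test. For these genes, only the difference between genotypes was tested. Beside them, 39 further choroid plexus genes and lists for neighbouring tissues were read. These lists were also drawn up with earlier results of these data known, so they too are a description. Each animal's library was made by QuantSeq, which sequences the 3′ end of polyadenylated RNA and gives about 1 read per transcript whatever its length.

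All 11 animals were female 5xFAD mice, labelled strain C57BL/6 and aged 8 months. This line expresses mutant human genes of familial Alzheimer's disease from the neuronal Thy1 promoter and develops amyloid plaques. In 5 animals Abi3, which codes for an actin-regulating adaptor protein of microglia, was deleted in every cell of the body (Abi3 KO), and 6 animals carried the intact gene (Abi3 WT). The 5xFAD line came from a B6SJL background and the Abi3 null line from C57BL/6N, and the study's methods give the animals of both groups as heterozygous for a Trem2 allele of SJL origin. The mice were perfused with saline before the cortex was dissected from 1 hemisphere, and nothing in the labels describes the choroid plexus, which lies next to the dissected tissue in the lateral ventricle. Reads in genes ranged from 3307854 to 5501958 in Abi3 WT and from 3202310 to 3933819 in Abi3 KO libraries. Abi3 itself had 7.24 to 37.7 normalized counts in Abi3 WT and 0 to 2.02 in Abi3 KO animals, with no overlap (p = 0.00216 by a two-sided exact permutation test, which cannot go lower with these group sizes). Slc17a7, Rorb and Lamp5 led the markers of cortical neurons, whose summed level was 1747 to 2527 in the 11 animals, so the labelled tissue was present in every library.

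The choroid plexus is a folded sheet of epithelial cells around leaky capillaries, sealed by tight junctions and covered with transporters that move ions, water, folate and hormones between blood and cerebrospinal fluid. Its cells make transthyretin (Ttr), the carrier of thyroxine and of retinol-binding protein, in such amounts that Ttr RNA is the usual sign of this epithelium in brain tissue. The transcription factor OTX2 acts in forming and maintaining the epithelium, and its homeodomain binds DNA around the bases TAATCC. In bulk tissue, more epithelial cells in a sample and more RNA per cell cannot be told apart.

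To show the regulatory sequence beside the values, promoter windows of 300 bases, from 250 before to 50 after an annotated start, were taken from RefSeq on build GRCm38.p6. Of the 9 genes other than Ttr, whose window was not searched, 5 had windows in the table, 11 windows in all. The first pair below belongs to Kcnj13 and Kcne2, channel genes whose 3 highest animals were those of Ttr, and the third to Otx2, the only window of the 11 that held the letters TAATCC on either strand. It lay on the minus strand reading GGATTA, in capitals, 211 bases before the start. Across all 32851 windows in the table, 2320 (7.06%) held these letters on either strand, so 1 of 11 is a description and no sign of a binding site.
Kcnj13, chr1:87394680-87394979, minus strand: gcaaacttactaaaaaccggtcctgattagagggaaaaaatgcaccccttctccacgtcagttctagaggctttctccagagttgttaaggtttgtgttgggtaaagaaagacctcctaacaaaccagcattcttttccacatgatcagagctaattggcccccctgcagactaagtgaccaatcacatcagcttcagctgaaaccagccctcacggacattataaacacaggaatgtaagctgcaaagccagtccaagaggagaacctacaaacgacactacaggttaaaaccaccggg
Kcne2, chr16:92292139-92292438, plus strand: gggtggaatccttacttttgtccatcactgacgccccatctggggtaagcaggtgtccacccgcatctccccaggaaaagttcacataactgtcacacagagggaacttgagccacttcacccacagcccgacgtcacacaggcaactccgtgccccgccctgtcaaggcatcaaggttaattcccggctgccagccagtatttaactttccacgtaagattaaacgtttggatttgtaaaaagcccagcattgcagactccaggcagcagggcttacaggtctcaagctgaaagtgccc
Otx2, chr14:48665060-48665359, minus strand: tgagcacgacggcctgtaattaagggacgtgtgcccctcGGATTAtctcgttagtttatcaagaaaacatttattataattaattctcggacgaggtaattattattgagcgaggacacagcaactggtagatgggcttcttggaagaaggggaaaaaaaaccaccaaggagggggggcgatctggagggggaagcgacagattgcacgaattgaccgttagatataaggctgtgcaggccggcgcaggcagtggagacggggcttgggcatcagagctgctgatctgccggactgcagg

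Ttr (ENSMUSG00000061808) lies on chromosome 18 at 20797253 to 20807467 on build GRCm39, on the plus strand. Positions of the other genes are on the same build. Levels here are normalized counts, that is raw counts divided by the DESeq2 size factor of the library. Ttr was at 94.7, 87.7, 83.7, 3447, 34.8 and 50.8 in Abi3 WT replicates 1 to 6, from 83, 131, 80, 4046, 48 and 48 counts. It was at 1847, 72.7, 151.6, 85.8 and 2270 in Abi3 KO replicates 1 to 5, from 1761, 72, 127, 76 and 1995 counts. Abi3 WT replicate 4 and Abi3 KO replicates 5 and 1 stood apart from the other 8 animals, and both genotypes held animals of either kind. The lowest of these 3 animals was 12.2 times the highest of the other 8, and the whole series spanned 99.2-fold. Ttr took 0.0954% of the reads in genes in Abi3 WT replicate 4 (95% Wilson interval 0.0925 to 0.0984%), 0.0623% in Abi3 KO replicate 5 and 0.0494% in Abi3 KO replicate 1, against 0.000915 to 0.00392% in the other 8. These intervals take each read as an independent count and leave out the spread between animals. The reads carried no molecular identifier and PCR copies were not collapsed, so the intervals are, if anything, too narrow. A predicted gene, Gm58847, overlaps Ttr on the same strand in the newer annotation, and reads in the overlap cannot be assigned with certainty.

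**Figure D1:**
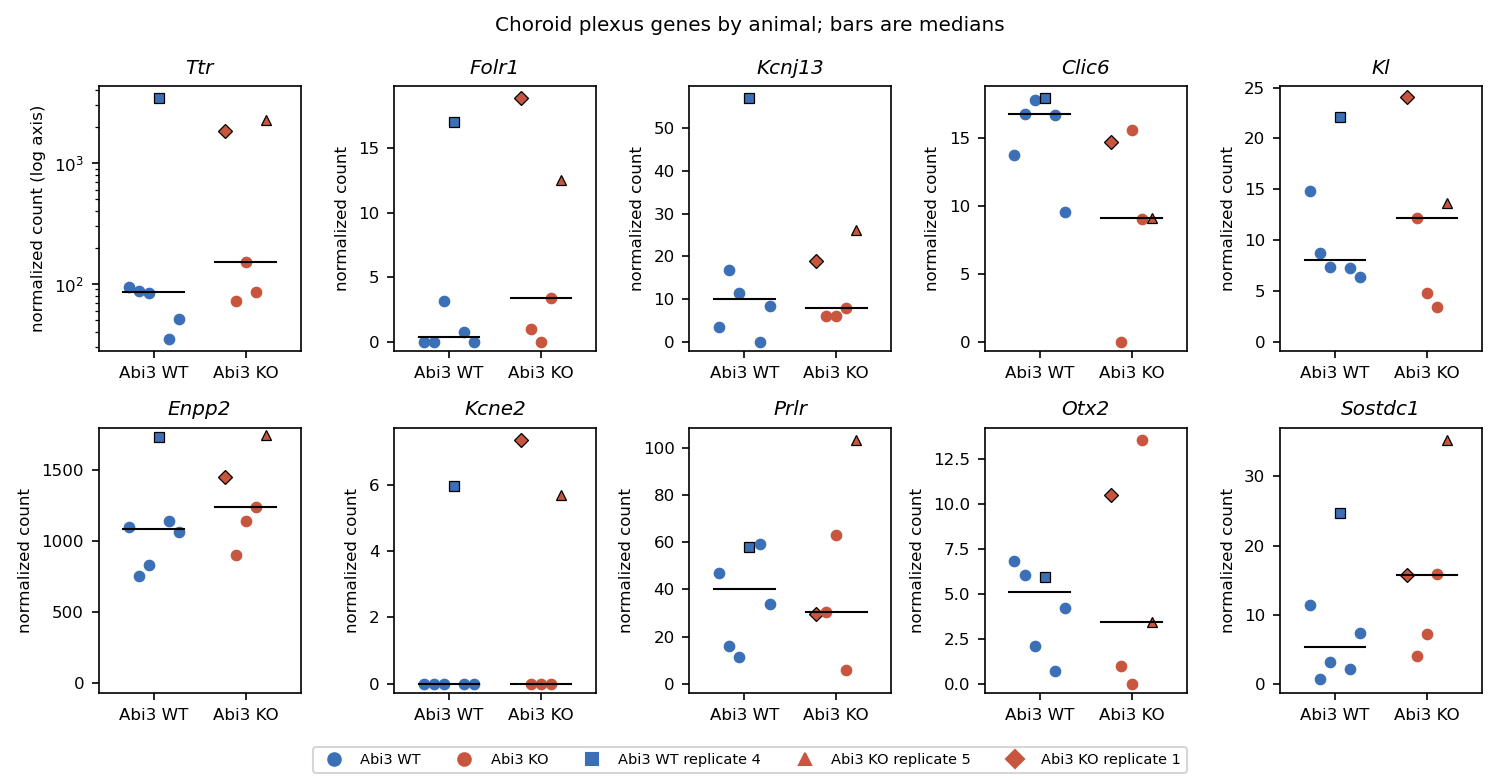
Normalized count of each of the 10 choroid plexus genes in every animal, by genotype (6 Abi3 WT, 5 Abi3 KO); points are animals, bars are group medians, and the Ttr axis is logarithmic. Square, triangle and diamond mark Abi3 WT replicate 4 and Abi3 KO replicates 5 and 1, which are the 3 highest animals for Ttr, Folr1, Kcnj13, Enpp2 and Kcne2 and are mixed with the other 8 for Clic6, Prlr and Otx2.

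Folr1 (ENSMUSG00000001827, chromosome 7 at 101507537 to 101520014, minus strand) codes for the folate receptor that carries folate across the choroid plexus epithelium. It gave 57 reads in all, and its normalized count was 0, 0, 3.14, 17.0, 0.724 and 0 in Abi3 WT replicates 1 to 6 and 18.9, 1.01, 0, 3.39 and 12.5 in Abi3 KO replicates 1 to 5. The 3 animals high in Ttr were the 3 highest here too, with 20, 18 and 11 reads against 3 or fewer in each of the other 8. Where an animal had 0 reads, up to 3 reads are compatible with that count, so levels among the 8 animals could not be told apart at this depth.

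Kcne2 (ENSMUSG00000039672, chromosome 16 at 92089219 to 92095027, plus strand) codes for an accessory subunit of potassium channels on the apical membrane. It had reads in these 3 animals and no other. Its normalized count was 5.96 in Abi3 WT replicate 4 (7 reads), 7.34 in Abi3 KO replicate 1 (7 reads) and 5.69 in Abi3 KO replicate 5 (5 reads), and the other 8 animals had 0 reads. A count of 0 allows up to 3 reads, 0.545 to 0.926 CPM (counts scaled to the reads in genes) in those 8 libraries. Kcnj13 (ENSMUSG00000079436, chromosome 1 at 87309135 to 87322456, minus strand) codes for the inward rectifier potassium channel Kir7.1. It was at 3.42, 16.7, 11.5, 57.1, 0 and 8.46 in Abi3 WT replicates 1 to 6 and 18.9, 6.06, 5.97, 7.91 and 26.2 in Abi3 KO replicates 1 to 5. The same 3 animals were highest, but Abi3 KO replicate 1 (18 reads) was close to Abi3 WT replicate 2 (16.7, from 25 reads), a ratio of 1.13.

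Clic6 (ENSMUSG00000022949, chromosome 16 at 92282624 to 92338739, plus strand), a member of the chloride intracellular channel family, did not follow Ttr. It was at 13.7, 16.7, 17.8, 17.9, 16.7 and 9.52 in Abi3 WT replicates 1 to 6 and 14.7, 0, 15.5, 9.04 and 9.10 in Abi3 KO replicates 1 to 5. Abi3 WT replicate 4 was level with replicate 3 of its own group, and Abi3 KO replicate 5 was below 6 of the 8 animals low in Ttr. The gene overlaps 2410124H12Rik on the same strand, and reads in the overlap cannot be assigned with certainty.

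Kl (ENSMUSG00000058488, chromosome 5 at 150876072 to 150917284, plus strand) codes for klotho, a co-receptor for a fibroblast growth factor hormone that is also shed into cerebrospinal fluid. It was at 14.8, 8.70, 7.32, 22.2, 7.24 and 6.35 in Abi3 WT replicates 1 to 6 and 24.1, 12.1, 4.77, 3.39 and 13.7 in Abi3 KO replicates 1 to 5. Abi3 KO replicate 1 and Abi3 WT replicate 4 were the 2 highest, and Abi3 KO replicate 5 (12 reads) fell just below Abi3 WT replicate 1 (13 reads). Prlr (ENSMUSG00000005268, chromosome 15 at 10177258 to 10349959, plus strand) codes for the prolactin receptor. It was at 46.8, 16.1, 11.5, 57.9, 59.4 and 33.9 in Abi3 WT and 29.4, 30.3, 63.3, 5.65 and 103.6 in Abi3 KO animals. Its highest animal was Abi3 KO replicate 5, but Abi3 KO replicate 1 was below the median animal (33.9) and below replicate 3, which was low in Ttr. Prlr overlaps Gm21973 on the same strand.

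Enpp2 (ENSMUSG00000022425, chromosome 15 at 54701324 to 54816288, minus strand) codes for autotaxin, the secreted enzyme that makes lysophosphatidic acid, and oligodendrocytes express it as well as the choroid plexus. It was the member with most reads, 13366 in all, at 1099, 758, 828, 1729, 1141 and 1066 in Abi3 WT replicates 1 to 6 and 1453, 904, 1138, 1242 and 1745 in Abi3 KO replicates 1 to 5. Its 3 highest animals were again those of Ttr, with the lowest of the 3 at 1.17 times the highest of the other 8, and it spanned only 2.30-fold over all animals. The summed level of 10 oligodendrocyte genes, among them Mbp and Mobp, was 9129 in Abi3 WT replicate 4, 11150 in Abi3 KO replicate 5 and 9388 in Abi3 KO replicate 1. All 3 values lay inside the 8208 to 12510 of the other 8 animals.

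Otx2 (ENSMUSG00000021848, chromosome 14 at 48894099 to 48911276, minus strand) codes for the homeodomain regulator of this epithelium. It was at 6.85, 6.02, 2.09, 5.96, 0.724 and 4.23 in Abi3 WT replicates 1 to 6 and 10.5, 1.01, 0, 13.6 and 3.41 in Abi3 KO replicates 1 to 5. With 55 reads in all and its highest value in Abi3 KO replicate 4, which was low in Ttr, it did not follow Ttr at this depth. Sostdc1 (ENSMUSG00000036169, chromosome 12 at 36364137 to 36368451, plus strand) codes for a secreted antagonist of BMP and Wnt signalling. It was at 11.4, 0.669, 3.14, 24.7, 2.17 and 7.41 in Abi3 WT and 15.7, 4.04, 7.16, 15.8 and 35.3 in Abi3 KO animals. Abi3 KO replicate 5 and Abi3 WT replicate 4 were highest, and Abi3 KO replicate 1 (15 reads) was level with Abi3 KO replicate 4 (14 reads). Otx2 overlaps Gm49154 and Sostdc1 overlaps Gm40392 on the same strand, with the same limit on assigning reads.

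In all, 4 of the 9 members other than Ttr (Folr1, Kcnj13, Enpp2 and Kcne2) had the same 3 highest animals as Ttr. Among the 17625 genes tested other than Ttr, 144 (0.817%) had these 3 animals highest. The members' count cannot be read as support, because the genes were chosen with these values known. The ratio of the lowest of the 3 animals to the highest of the other 8, each plus 1, was 6.69 for Kcne2 and 3.08 for Folr1. Both genes had enough reads to be tested only because of these 3 animals. The ratio was 1.93 for Kcnj14, another inward rectifier potassium channel gene that is on none of the lists and was named after its values were seen, with 6, 11 and 9 reads in Abi3 WT replicate 4 and Abi3 KO replicates 1 and 5 against 0 to 3 in the others. Kcnj14 too had enough reads to be tested only because of these 3 animals.

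**Figure D2:**
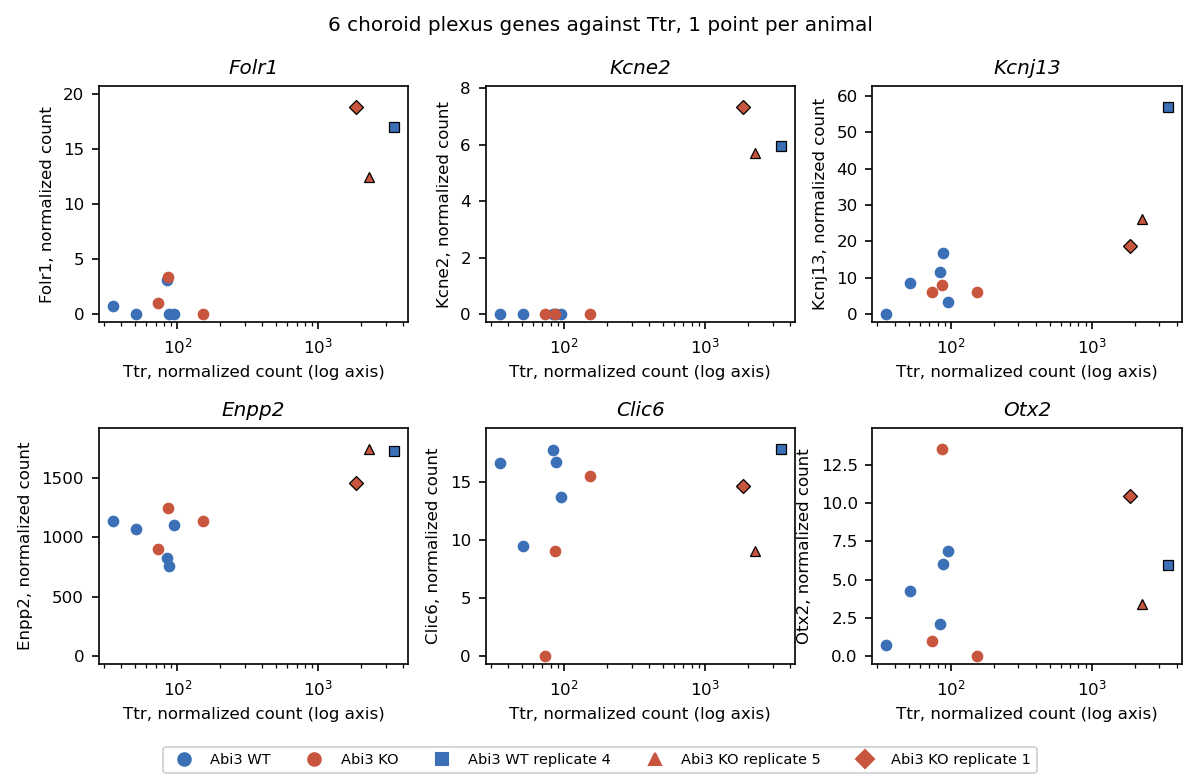
Normalized count of 6 choroid plexus genes (vertical axis) against that of Ttr (horizontal axis, logarithmic), 1 point per animal, blue for Abi3 WT and red for Abi3 KO. The 3 animals at the right are highest for Folr1, Kcne2, Kcnj13 and Enpp2, while Clic6 and Otx2 take similar values on both sides, and among the 8 animals on the left r ran from -0.084 (Folr1 and Enpp2) to 0.563 (Kcnj13).

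Pearson's r with Ttr, on log2(normalized count + 1) over the 11 animals, ran from 0.19 for Clic6 to 0.968 for Kcne2, with a median of 0.742 over the 9 genes, and Spearman's rho ran from 0.209 (Clic6) to 0.752 (Kcne2). Because 3 animals lay far from the rest, r over all 11 mostly restates which animals were high. The points of one animal share a library and its depth, and no p is given. Over the 8 animals low in Ttr, r ran from -0.128 for Prlr to 0.563 for Kcnj13, with a median of -0.0457 over the 8 genes that could be given a value, and 5 of these 8 were below 0. Kcnj13 had a rho of only 0.0476 there, and Kcne2, at 0 in those 8 animals, has no value. Without the 2 animals farthest from the median of Ttr, r was 0.934 for Kcne2, 0.739 for Folr1, 0.612 for Kl, 0.563 for Kcnj13 and 0.531 for Enpp2, and 0.00168 for Prlr against 0.407 over all 11. The relation with Ttr thus rested on the 3 high animals.

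Of the 6 members other than Ttr with a mean of at least 10 normalized counts, 1 reached an r of 0.8 (Enpp2, 0.804), and of 12901 genes at that level 24 (0.186%) did. Folr1 (0.861) and Kcne2 (0.968) passed it with means of 5.15 and 1.73. Among the 10 genes outside the members with the highest r at that level were Cab39 (0.882), F5, Nfyb, Tcf4, Exosc1, Nsd1, Slc27a2, Tomm34 and Scaf11 (0.832). Of these, only F5, coagulation factor V, is on the choroid plexus list. It spanned 16.1-fold between its lowest and highest animal, whereas Cab39 spanned 1.56-fold and the transcription factor gene Tcf4 1.18-fold, against 99.2-fold for Ttr. A high r on these 11 animals therefore said little of the size of a difference.

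Some of the other choroid plexus genes had these 3 animals highest and most did not. Of 39 symbols, 37 had a count, 31 entered the test between genotypes and 20 had a mean of at least 10. The 3 animals high in Ttr were the 3 highest for 4 of these genes, Cldn2, Tmem72, Wfdc2 and F5. Cldn2 and Wfdc2 had enough reads to be tested only because of these 3 animals, so nothing is read from this count. Cldn2, the claudin that makes the tight junctions of this epithelium cation-permeable, had 11, 11 and 4 reads in Abi3 WT replicate 4 and Abi3 KO replicates 1 and 5 and 3 or fewer in each of the others. Tmem72, a membrane protein gene, had 31, 9 and 21 reads in these animals and 0 to 5 in the others, and Wfdc2, a secreted protease inhibitor gene, had 9, 8 and 2 reads and at most 1 in the others. F5 had 27, 29 and 30 reads and 2 to 16 in the others. The first 3 of these 4 genes were named after their values were seen.

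The 8 genes of this list with most reads did not separate the 3 animals. They were Slc12a2, the sodium-potassium-chloride cotransporter NKCC1, Trpm3, a cation channel, Htr2c, the serotonin receptor, Vat1l, Sulf1, a heparan sulfatase, Cab39l, Igfbp2, an insulin-like growth factor binding protein, and Car12, a carbonic anhydrase. Slc12a2 was at 236.8 in Abi3 WT replicate 4, 261.1 in Abi3 KO replicate 1 and 341.4 in Abi3 KO replicate 5, within 210.8 to 353.5 of the others. Htr2c was at 172.1, 108.0 and 146.8 in the same order, and its highest value was 235.1 in Abi3 WT replicate 1. Trpm3 was at 294.8, 284.2 and 233.3, against 199.4 to 290.9 in the others, so Abi3 WT replicate 4 was highest by a small margin. Vat1l was at 96.3, 98.6 and 100.1 and Cab39l at 51.1, 39.9 and 67.1 in Abi3 WT replicate 4 and Abi3 KO replicates 1 and 5, and Sulf1 at 64.8, 62.9 and 22.8. For Igfbp2 these animals held both ends of the range, with 66.5 and 91.0 in Abi3 WT replicate 4 and Abi3 KO replicate 5 and 23.1 in Abi3 KO replicate 1. Car12 was at 48.6, 28.3 and 50.1, within 20.3 to 76.9 of the others. Most of these genes are also expressed by neurons or glia of the cortex. The list as a whole summed to 1454, 1207 and 1412 in these 3 animals, against 1099 to 1454 in the other 8. Other genes of the list were at or near the floor: Lmx1a and Mfrp had no read in any animal, and Krt8 had 3 and Krt18 had 5 in all, 4 genes named after their values were seen.

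The ratio of a gene's reads to the Ttr reads of the same library also varied among the 3 animals. For every 1000 Ttr reads, Kcnj13 had 16.6 reads in Abi3 WT replicate 4, 11.5 in Abi3 KO replicate 5 and 10.2 in Abi3 KO replicate 1, with exact 95% intervals of 12.8 to 21.1, 7.29 to 17.3 and 6.04 to 16.2 that overlap. Kcne2 had 1.73, 2.51 and 3.98 and Folr1 4.94, 5.51 and 10.2 in the same order, also with overlapping intervals. Overlap of intervals does not show that the ratios were equal, and the estimate for Folr1 was highest in Abi3 KO replicate 1 (from 18 reads) and lowest in Abi3 WT replicate 4 (from 20 reads). Prlr had 16.8, 45.6 and 15.9, and the interval of Abi3 KO replicate 5, 36.6 to 56.3, lay above both others. Sostdc1 had 7.17, 15.5 and 8.52, and the intervals of Abi3 WT replicate 4 (4.79 to 10.3) and Abi3 KO replicate 5 (10.5 to 22.1) did not overlap. Enpp2 had 501, 768 and 786, a ratio to which reads from cells other than choroid plexus add. Reads that do not go with Ttr enter other ratios too. Among animals low in Ttr, Prlr had 82 reads in Abi3 WT replicate 5 and 53 in Abi3 KO replicate 3. Sostdc1 had 14 reads in Abi3 KO replicate 4, whereas Folr1 had at most 3 and Kcne2 none in these animals.

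Some genes of the further list departed more. Slc4a5, the sodium bicarbonate cotransporter of the apical membrane, had 19 reads in Abi3 WT replicate 4 and 18 in Abi3 KO replicate 5, that is 4.70 and 9.02 per 1000 Ttr reads, and 0 reads in Abi3 KO replicate 1, which allows up to 1.7. Aqp1, the water channel of the same membrane, had 32 reads in Abi3 WT replicate 4 (7.91 per 1000), 7 in Abi3 KO replicate 1 (3.98) and 0 in Abi3 KO replicate 5, which allows up to 1.5. Calml4, a calmodulin-like gene, had 1, 14 and 3 reads in Abi3 WT replicate 4 and Abi3 KO replicates 5 and 1. Ecrg4, a secreted peptide precursor gene, had 33, 37 and 8. Some animals low in Ttr had reads of these genes too. Aqp1 had 33 and 18 in Abi3 WT replicates 2 and 6. Calml4 had 11 and Ecrg4 13 in Abi3 KO replicate 2, whereas Slc4a5 had at most 4 in any animal low in Ttr. Such ratios are therefore not a measure of the plexus alone. F5 had 6.67, 15.0 and 16.5 per 1000 Ttr reads in Abi3 WT replicate 4 and Abi3 KO replicates 5 and 1, and the interval of the first, 4.39 to 9.72, lay below the others, which began at 10.1 and 11. Slc4a5, Aqp1, Calml4 and Ecrg4 were named after their values were seen, and no test was made of the differences between 3 single animals.

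**Figure D3:**
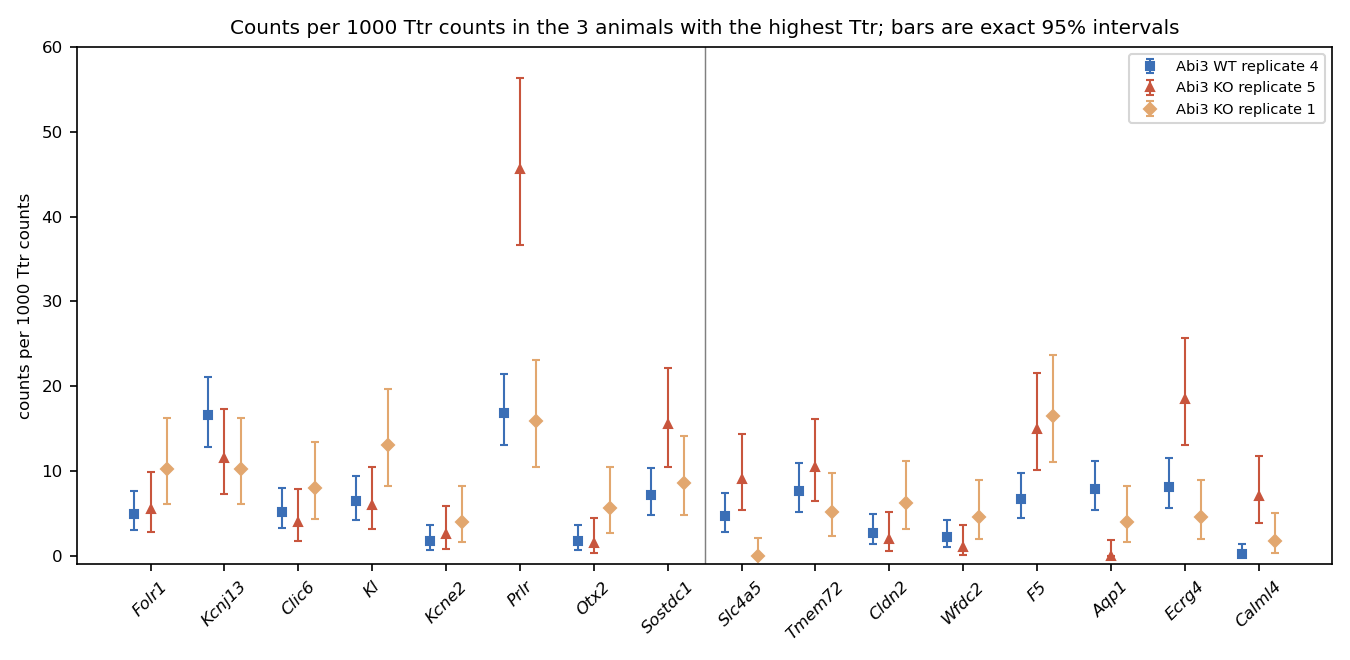
Reads of each gene per 1000 Ttr reads in Abi3 WT replicate 4 (square), Abi3 KO replicate 5 (triangle) and Abi3 KO replicate 1 (diamond), with exact 95% intervals for counting error; 8 members are left of the vertical line, 8 other choroid plexus genes right of it, and Enpp2 (501 to 786) is off the scale. The intervals of Folr1, Kcnj13 and Kcne2 overlap between animals, while that of Prlr in Abi3 KO replicate 5 (36.6 to 56.3) lies above both others, and those of Sostdc1 and F5 in Abi3 WT replicate 4 lie below that of Abi3 KO replicate 5.

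Genes of tissues that adjoin the choroid plexus or the cortex were read in the same animals. The summed normalized count of the members without Ttr was 1937, 1954 and 1592 in Abi3 WT replicate 4 and Abi3 KO replicates 5 and 1, against 823 to 1301 in the other 8, and without Ttr and Enpp2 it was 208.7, 209.4 and 139.5 against 54.5 to 97.0. Ciliated ependymal cells line the ventricle next to the plexus, and their 10 genes, led by Rarres2, Foxj1 and Rsph1, summed to 29.8, 118.4 and 85.0 against 70.0 to 127.0. Abi3 WT replicate 4, highest in Ttr, was thus the lowest animal for ependymal genes. Meningeal fibroblast genes, led by Col1a2, Dcn and Slc13a3, summed to 203.6, 240.1 and 341.9 against 162.2 to 505.0.

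Hippocampal genes, led by Prox1, Fibcd1 and C1ql2, summed to 69.9 in Abi3 WT replicate 4, the lowest of all animals, and to 163.9 and 112.2 in Abi3 KO replicates 5 and 1, against 111.7 to 172.7. Thalamic genes, led by Amotl1, Slc17a6 and Tcf7l2, summed to 450.7, 551.9 and 556.9 against 491.8 to 697.1, and striatal genes, among them Penk and Ppp1r1b, to 4143, 3033 and 3770 against 2893 to 4672. Haemoglobin and other red blood cell genes, led by Hbb-bs, Hba-a1 and Hbb-bt, summed to 351.9 and 389.2 in Abi3 WT replicate 4 and Abi3 KO replicate 5, above the 7.91 to 294.5 of the other 8, and to 21.0 in Abi3 KO replicate 1. In none of these neighbouring lists did a single gene have the same 3 highest animals as Ttr. Over all genes tested the share was 0.817%, so none in lists this short is near that share, and nothing is read from it. What part the dissection had in the Ttr level of an animal was not tested.

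**Figure D4:**
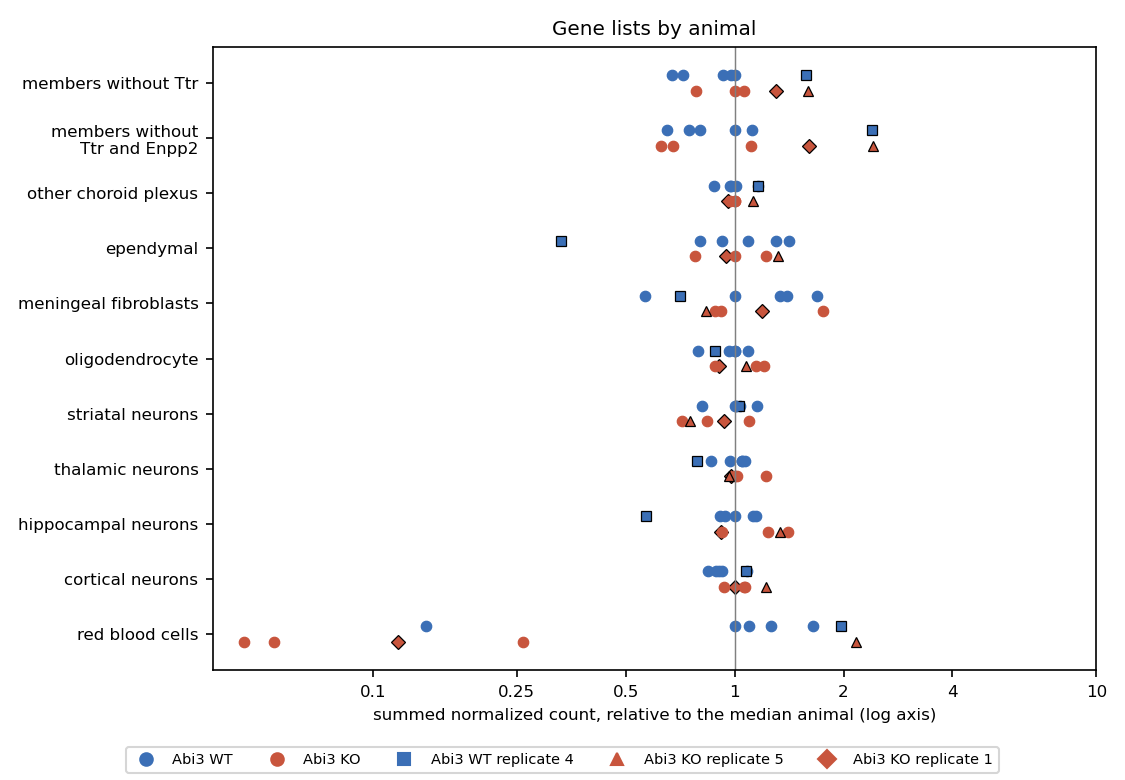
Summed normalized count of each gene list in every animal, relative to the median animal (horizontal axis, logarithmic; blue Abi3 WT, red Abi3 KO; the 3 animals high in Ttr have their own symbols). These 3 animals are highest for the members without Ttr (1592 to 1954, against 823 to 1301) and lie among or below the others for ependymal, meningeal, oligodendrocyte, striatal, thalamic and hippocampal genes. Abi3 KO replicate 5 is the highest animal for cortical genes (2527, against 1747 to 2244) and for red blood cell genes.

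Between genotypes, no choroid plexus gene passed the threshold when all 11 animals were fitted. DESeq2 (Wald test, genotype as the only term, Benjamini-Hochberg adjusted p at or below 0.05) called 0 of the 10 members and 95 of 17626 genes tested (0.539%). At an unadjusted p under 0.05 it found 0 members and 8.58% of genes. edgeR called 0 members and 0.21% of genes, and at an unadjusted p under 0.05 it found 0 members and 8.59% of genes. limma called 0 members and 0.119% of genes, and at an unadjusted p under 0.05 it found 2 members (Clic6 and Sostdc1) and 8.71% of genes. All 10 members were tested, but only Ttr and Enpp2 received an adjusted p from DESeq2, since the tool gives none to genes with few reads. The estimates were above 0 for 8 members and below 0 for Kcnj13 and Clic6, with a median of 0.36 on the log2 scale.

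Ttr averaged 633.1 ± 1379 normalized counts in Abi3 WT (SD, n = 6) and 885.4 ± 1082 in Abi3 KO animals (SD, n = 5), with medians of 85.7 and 151.6. Its log2 fold change was 0.48 with a standard error of 1.34 (adjusted p = 0.933), and an exact permutation test on the log2 levels, two-sided, gave p = 0.301. Whether Ttr was called turned on Abi3 WT replicate 4, and its estimate on each of the 3 animals high in Ttr. Without Abi3 WT replicate 4, Ttr was called higher in Abi3 KO, by 3.65 ± 0.96 on the log2 scale (SE, DESeq2). That fit called 107 of 17569 genes (0.609%). The animal left out was the highest in Ttr, so the call describes its weight and no p is given. limma voom gave 1.37 and a fit with the replicate block 1.40, and neither was called. Without Abi3 KO replicate 5 the DESeq2 estimate was -0.23, and without Abi3 KO replicate 1 it was 0.03. Leaving out all 3 animals with the highest Ttr, a choice made after seeing the data, it was 0.56 ± 0.32 (SE), with too few reads for an adjusted p. The remaining 5 Abi3 WT animals (34.8 to 94.7) and 3 Abi3 KO animals (72.7 to 151.6) overlapped, and no test is given because animals were left out by their Ttr level.

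Enpp2 averaged 1104 ± 343 in Abi3 WT and 1296 ± 319 in Abi3 KO animals (SD, n = 6 and 5), a log2 fold change of 0.23 ± 0.24 (SE, DESeq2 adjusted p = 0.758). Sostdc1 averaged 8.25 ± 8.97 and 15.6 ± 12.2, and Clic6 15.4 ± 3.25 and 9.67 ± 6.20. Their log2 fold changes of 0.93 ± 0.69 and -0.68 ± 0.51 (SE) had the lowest unadjusted DESeq2 p among the members, 0.181 and 0.178. The remaining estimates were 1.04 ± 1.65 for Folr1, 1.38 ± 2.98 for Kcne2, 0.41 ± 0.84 for Otx2, 0.30 ± 0.66 for Prlr, 0.07 ± 0.55 for Kl and -0.32 ± 0.97 for Kcnj13 (log2, SE). Each of these standard errors was larger than the size of its estimate. Without the 3 animals Folr1 and Kcne2 could not be tested, and of the other 8 members only Enpp2 received an adjusted p in DESeq2. It was not called, in a fit that called 27 of 17649 genes (0.153%), and the other 7 could not be.

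**Figure D5:**
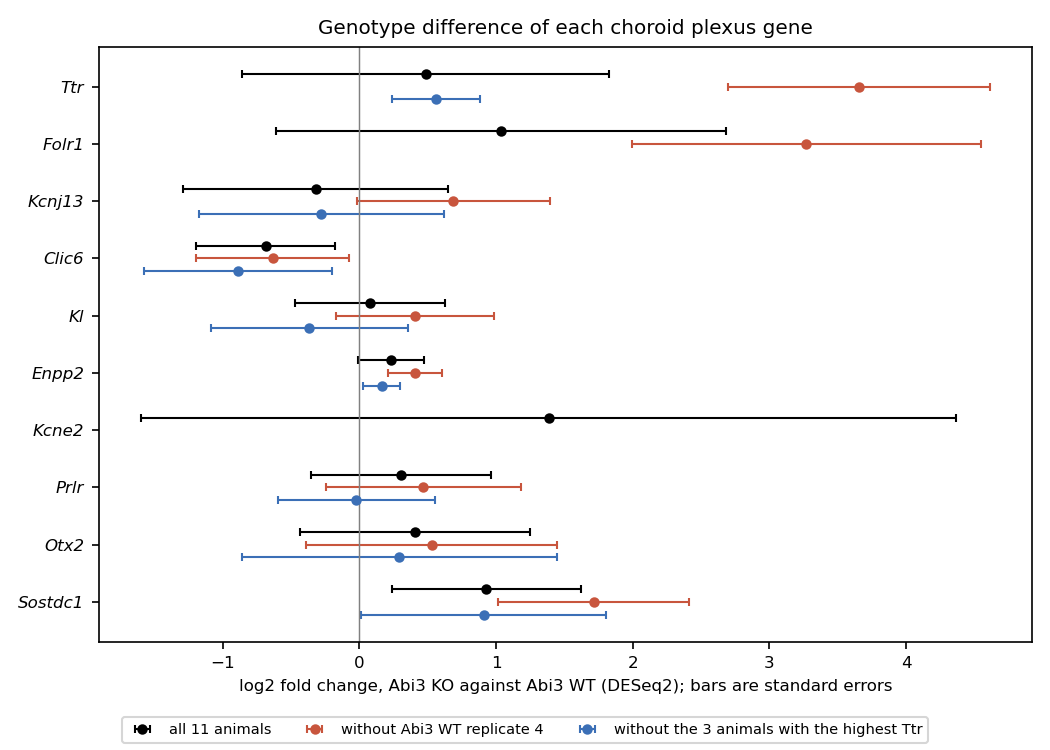
DESeq2 log2 fold change of each member, Abi3 KO against Abi3 WT, with standard errors (horizontal bars), from all 11 animals (black), without Abi3 WT replicate 4 (red) and without the 3 animals with the highest Ttr (blue). Ttr moves from 0.48 to 3.65 when that 1 animal is left out and returns to 0.56 without all 3, and Folr1 has no blue point and Kcne2 neither a red nor a blue one because too few reads were left.

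Of the 31 other choroid plexus genes tested, edgeR and limma called 0. DESeq2 also called 0, but gave an adjusted p to only 4 of them, and 3 had an unadjusted DESeq2 p under 0.05, against the 8.58% over all genes. The estimates were above 0 for 16 and below 0 for 15, with a median of 0.0041 on the log2 scale. Aqp1 had 0, 33, 6, 32, 5 and 18 reads in Abi3 WT replicates 1 to 6 and 7, 1, 0, 0 and 0 in Abi3 KO replicates 1 to 5 (log2 fold change -2.95 ± 1.37 (SE), unadjusted p = 0.0315 in DESeq2). Car12 averaged 49.2 ± 16.0 and 29.6 ± 11.8 normalized counts (SD), a log2 fold change of -0.74 ± 0.30 (SE, unadjusted p = 0.014 in DESeq2). Calml4 had 2 reads in all Abi3 WT animals together and 28 in Abi3 KO animals, of which 14 were in replicate 5 and 11 in replicate 2 (unadjusted p = 0.00256 in DESeq2). DESeq2 gave none of these 3 genes an adjusted p, and Aqp1 and Calml4 were named after they were seen.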

How the data were processed

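QuantSeq 3′ mRNA libraries of 11 cortices (6 Abi3 WT, 5 Abi3 KO) were analysed, grouped by the genotype in their labels. The authors trimmed the reads, aligned them with STAR (version 2.7.3a) to GRCm39 and counted them per Ensembl gene with HTSeq (version 0.9.1), using the strand. The deposited values are raw counts, not normalized, and PCR copies were not collapsed. Rows that name no gene were left out of the totals; reads given to no feature came to 49.8 to 68.8 per 100 reads in genes. Of 53700 identifiers, 52610 matched the newer GENCODE annotation of GRCm39 that supplied symbols and positions. Nothing states that the libraries came from separate litters or days, so p-values measure the spread between these animals.

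Genes with at least 10 reads in total were fitted in DESeq2 (version 1.42.0, R 4.3.3) with genotype as the only term, and results were kept for those averaging 1.5 normalized counts or more. Adjustment was over all of these genes, with independent filtering aimed at 0.05. Alternatives were edgeR (version 4.0.16), limma voom (version 3.58.1), other filters and scalings, a replicate block, and leaving out animals. On counts simulated for the 17626 genes of this comparison with 200 changed, DESeq2 recovered 94.5%, edgeR 95% and limma 91%, and 8.70%, 5% and 3.19% of their calls were false. The changed genes were drawn only from genes with many reads, and each was changed by the same factor. Among the members only Ttr and Enpp2 had means that high, so these rates do not cover the other members. Likeness to Ttr used log2(normalized count + 1). A floor of 3 reads equals 0.545 to 0.937 CPM (counts scaled to the reads in genes).

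The members and lists were chosen with earlier results of these data known. Named are Abi3, the 10 members, the 8 highest of the other choroid plexus genes, the 10 genes outside the members most like Ttr with a mean of at least 10, and the 3 highest genes of each other list. Any other gene was named after its values were seen. Some genes that this rule would name are not reported here.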

Additional observations from a re-analysis of the deposited data

Results flagged for a closer look

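Within the 6 Abi3 WT animals, replicate 4 lay far above the others for several choroid plexus genes. Its Ttr was 3447 normalized counts with the nearest animal at 94.7, its Folr1 17.04 with the nearest at 3.14, its Kcnj13 57.08 with the nearest at 16.7, and its Kcne2 5.964 with the others at 0. The summed members without Ttr were 1937 in this animal, with the nearest at 1228. In the Abi3 KO group, replicate 2 had 2.02 normalized counts of Abi3, from 2 reads, with the others at 0. The gap between an end value and its nearest neighbour was compared with the range of the group by Dixon's criterion. It was passed in 6 of 24 groups examined, 5 of them by the same library, and chance alone passes about 1 group in 20. Because the members were chosen with these levels known, the criterion describes them and is no test.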

How the results depend on the processing

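Under 20 alternatives, 0 members were called between genotypes except without Abi3 WT replicate 4, when 1 was (Ttr; range 0 to 1 over the fits that leave out 1 animal), and 0 other choroid plexus genes were called under any of the 20. Under DESeq2's independent filtering most of these genes received no adjusted p and could not be called. The log2 fold change of Ttr ran from -0.228 (without Abi3 KO replicate 5) to 3.65 (without Abi3 WT replicate 4). Folr1, Clic6, Enpp2, Kcne2 and Sostdc1 kept their direction under every alternative that gave a value; Folr1 and Kcne2 had too few reads under some. Their size moved more: leaving out 1 animal, Folr1 ran from 0.271 (without Abi3 KO replicate 1) to 3.27 (without Abi3 WT replicate 4), Sostdc1 from 0.385 (without Abi3 KO replicate 5) to 1.71 (without Abi3 WT replicate 4), Clic6 from -0.918 to -0.356 (without Abi3 KO replicate 2), and Enpp2 from 0.104 (without Abi3 KO replicate 5) to 0.406 (without Abi3 WT replicate 4). Kcnj13 changed sign under limma voom (0.694) and leaving out animals (range -0.739 to 0.688). Kl did so under limma voom (-0.0351), without the 3 animals with the highest Ttr (-0.368) and leaving out animals (range -0.378 to 0.404), Prlr without the 3 animals (-0.0224) and leaving out animals (range -0.229 to 0.587), and Otx2 under limma voom (-0.13) and leaving out animals (range -0.192 to 0.725). The cause was not tested. The median r with Ttr was 0.742, and became 0.582 by Spearman, 0.79 on CPM, 0.809 on linear counts, 0.531 without the 2 animals farthest from the median of Ttr, -0.0457 without the 3 animals, and 0.667 to 0.81 leaving out 1 animal. Members with an r of at least 0.8 numbered 3, and 0 by Spearman, 5 on linear counts, 1 without those 2 animals, 0 without the 3 and 2 to 5 leaving out 1 animal. Low depth limits Folr1, Kcne2 and Otx2, with 57, 19 and 55 reads in all.

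Animals of both genotypes share replicate numbers. Deviations of same-numbered animals from their group means correlated at -0.00485 to 0.0656, with a mean of 0.0184 against -0.00368 for the other pairs. Of the 5 Abi3 KO animals, 2 correlated best with their own number. These values do not settle whether the numbers pair the animals. A fit with the replicate block called 0 members; in it Kcnj13 was 0.153, Kl -0.122 and Otx2 -0.022, and the median r with Ttr was 0.798.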
